A study of Mus musculus with 36 samples.

Results

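Nuclear genes of oxidative phosphorylation were followed across 6 groups of mouse hippocampus. They were chosen by symbol: all genes whose names begin with Ndufa, Ndufb, Ndufc, Ndufs, Ndufv, Uqcr or Atp5, the families Cox4 to Cox8, and Sdha, Sdhb, Sdhc, Sdhd and Cyc1. The rule found 86 of 24421 gene symbols, 36 for complex I, 4 for complex II, 9 for complex III, 20 for complex IV and 17 for ATP synthase, also called complex V. The 7 assembly factors named Ndufaf were left out, and the subunits encoded by mitochondrial DNA were not analysed here. By role, the 86 genes comprised 7 core and 29 supernumerary subunits of complex I, 11 subunits and 9 tissue isoforms or paralogs of complex IV (Ndufa4 counted with complex IV), and 5 F1, 4 stalk, 3 c ring and 3 membrane subunits with 2 related factors of ATP synthase.

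RNA sequencing of polyadenylated RNA gave 36 libraries, 6 per group with 3 females and 3 males each. The aging arm held C57BL/6 mice, young at 8 months, old at 18 months, and old at 18 months given a nanoligomer, an antisense agent based on peptide nucleic acid; the series title speaks of lowering NF-κB and NLRP3. All mice of the transgenic arm were 4 months old and were littermates without the transgenes, APP/PS1 mice, which carry mutant amyloid precursor protein and presenilin, or APP/PS1 mice given the nanoligomer. Which APP/PS1 line and promoter were used, at which dose and for how long, the labels do not say. The depth was 27.6 to 46.3 M reads per library. Female 3 among the treated APP/PS1 mice was the exception with 0.913 M reads; 25 of the 86 genes had a read there, and leaving it out gave n = 5. The values compared are the authors' normalized counts, scaled library by library within each of 4 tables, and levels across tables are CPM, read counts scaled to the same total in every library. The labels do not say that each library came from a separate mouse, so p-values measure the spread between these libraries.

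Complexes I to IV form the respiratory chain of the inner mitochondrial membrane: complex I takes electrons from NADH and complex II from succinate, complex III passes them to cytochrome c, and complex IV gives them to oxygen. Complexes I, III and IV pump protons, and ATP synthase lets the protons flow back through a rotor ring of c subunits while its F1 part makes ATP. In hippocampal neurons this pathway supplies most of the ATP for ion pumping at synapses, and transcription factors such as NRF1 and the ETS protein NRF2 are known to act on many of its promoters.

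Some libraries stood apart in tissue markers. The summed level of 10 markers of hippocampal neurons was 9092 to 12311 CPM in 33 libraries, but 5614 CPM in young male 1 and 4114 CPM in APP/PS1 female 1. Young male 1 also held 4255 CPM of 12 choroid plexus markers, the tissue that secretes cerebrospinal fluid, and treated APP/PS1 female 1 held 4115 CPM. Markers of thalamus and habenula, other brain regions, summed to 1043 CPM in young male 1, the highest of all libraries, before old female 1 at 480 CPM. Markers of striatum, a neighbouring region, summed to 1801 CPM in APP/PS1 female 1, 1876 in treated old female 3, 1074 in young male 2, 934 in treated APP/PS1 male 2 and 552 in old male 3. APP/PS1 female 3 held 905 CPM of microglial markers. Treated old female 1 held 197 CPM of skeletal or heart muscle markers, the highest of all libraries. Values without some of these libraries, alone or in sets, are given with the comparisons below. In bulk tissue, fewer cells of a type and less RNA per cell cannot be told apart.

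The 86 genes took 0.763 to 0.947% of the reads of a library. Their summed level was 8571 ± 454 CPM in young mice (mean ± SD, n = 6), and 8641 ± 408 CPM (n = 6) and 8715 ± 502 CPM (n = 6) in old mice without and with treatment. Littermates had 8174 ± 536 CPM (n = 6), APP/PS1 mice 7894 ± 242 CPM (n = 6) and those given the nanoligomer 8065 ± 144 CPM (n = 5). These sums overlapped between the groups of each arm. Complex IV genes summed to 1723 to 1877 CPM in young, 1767 to 2247 in old and 1687 to 2055 in treated old mice. In the transgenic arm they summed to 1572 to 1969 CPM in littermates, 1512 to 1718 in APP/PS1 and 1614 to 1724 in treated APP/PS1 mice. Groups of different arms differ in age, and APP/PS1 mice also in genotype. ATP synthase genes made up 35.9% of the members' CPM, complex I genes 27.1%, complex IV genes 21.1%, complex III genes 9.75% and complex II genes 6.19%.

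**Figure D1:**
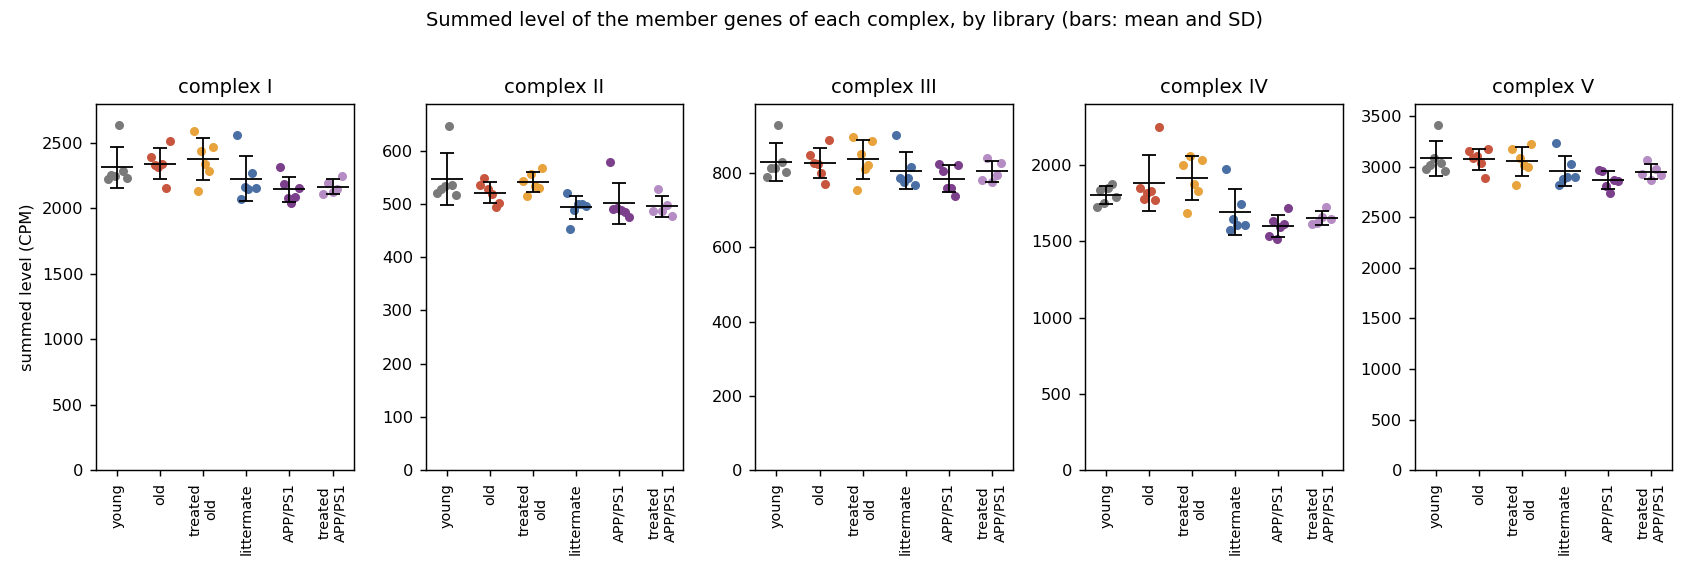
Summed level in CPM (y axis, from 0) of the genes of each complex, 1 panel per complex, with 1 point per library in 6 groups and bars for mean and SD. Groups of the same arm overlap in all 5 panels. Young male 1 is the highest young library for complex I at 2632 CPM, and old male 3 is the highest old library for complex IV at 2247 CPM.

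The catalytic core of ATP synthase was the most abundant part. Atp5b, the beta subunit that carries the catalytic sites, had a mean of 847 CPM over the 35 libraries and Atp5a1, the alpha subunit beside it, 697 CPM, followed by Sdha, the flavoprotein of complex II that oxidises succinate, at 334 CPM. In the groups in order of young, old, treated old, littermate, APP/PS1 and treated APP/PS1, the median level of Atp5b was 860.0, 895, 889.7, 809, 803 and 843 CPM, within a range of 747 to 962 CPM over all libraries. Divided by transcript length (the median of the principal transcripts in GENCODE), the order changed: Cox6a1, a small complex IV subunit, led with 505 CPM per kb, before Atp5b with 442, Cox8a, another small complex IV subunit, with 432, Cox4i1, the subunit through which ATP acts on complex IV, with 373 and Atp5a1 with 282. By complex, the median level per length was 184 CPM per kb in complex IV over the 12 genes with at least 10 CPM, 133 in ATP synthase (16 genes), 78.9 in complex III (9 genes), 67.3 in complex I (36 genes) and 51.9 in complex II (4 genes). The annotated lengths of Atp5g1, Ndufb2 and Ndufab1 come from long transcripts, so their levels per length may be too low.

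Most members varied by less than 2-fold over all libraries. For the 77 genes with a mean of at least 10 CPM, the ratio of the highest to the lowest library had a median of 1.49, was highest in Ndufa3 at 2.23, and stayed under 2 for 75 of 77. The coefficient of variation within groups had a median of 8.54%. It was lowest in Atp5c1, the central shaft of F1, and Uqcrc2, a core protein of complex III, at 5.08 and 5.09%, and highest in Ndufa2, an accessory subunit of complex I, at 13.9%. Some libraries were high or low for most members: young male 1 was the highest of its group for 59 of these 77 genes, littermate female 1 for 64, and treated old female 2 was the lowest of its group for 54. The library with the highest summed level of the members was also the highest for 84 cytosolic ribosomal protein genes in 3 of the 6 groups, and the lowest library was the same in 5 of 6. The part of library composition in the differences below was not tested beyond leaving libraries out.

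**Figure D2:**
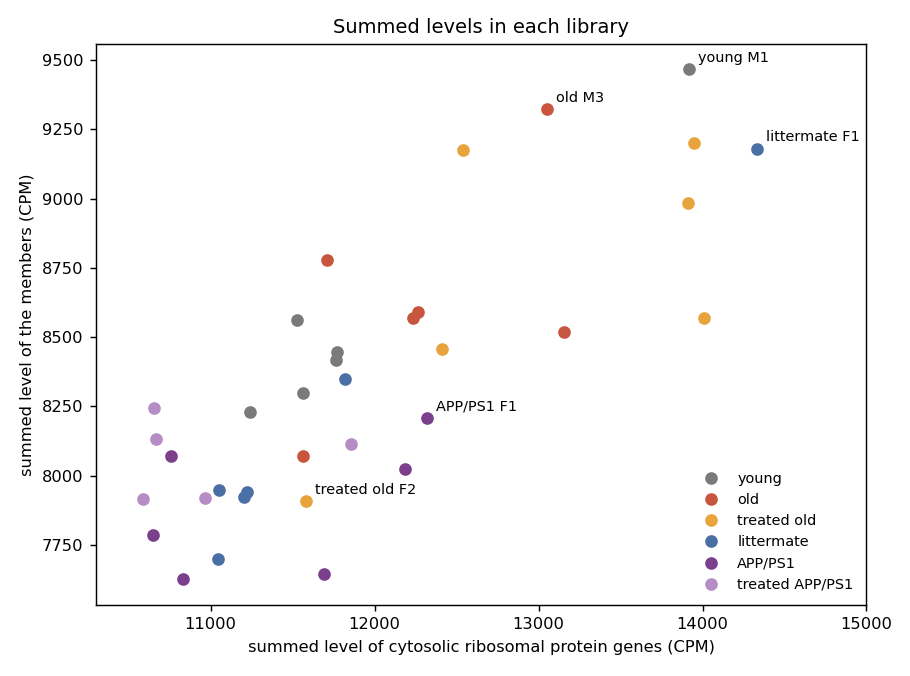
Summed level of the 86 genes (y axis, CPM) against that of 84 cytosolic ribosomal protein genes (x axis, CPM), 1 point per library coloured by group, with axes that do not start at 0. Young male 1 lies at 9466 and 13917 CPM and littermate female 1 at 9180 and 14330 CPM, toward the upper right, and treated old female 2 at 7907 CPM is the lowest of its group.

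Several complex IV subunits exist as a common form and a form known from other tissues, and the tissue forms were scarce. As a share of the pair per length, the median over 35 libraries was 0.532% for Cox4i2, a lung and vascular form induced by low oxygen, beside Cox4i1, 2.02% for the heart and muscle form Cox6a2, 2.02% for the muscle form Cox7a1, 1.32% for the testis form Cox6b2, 0.610% for Cox7b2 and 0.235% for Cox8b, a muscle and brown fat form beside Cox8a. Ndufa4l2, a paralog of Ndufa4 known as a target of hypoxia signalling, made up 1.76% of its pair. Cox8c had 7 reads in all, with 33 of 35 libraries at 0. Over all libraries the Cox7a1 share ran from 0.608 to 4.21% and the Cox4i2 share from 0.148 to 1.24%. The c ring genes, which encode the same mature protein, had narrower ranges: Atp5g3 made up 55.8%, Atp5g2 32.3% and Atp5g1 11.4% of the c ring total per length, with 9.78 to 12.7% for Atp5g1. These shares rest on lengths of 2675.5 bases for Atp5g1, 586 for Atp5g2 and 718.5 for Atp5g3. The Atp5g1 length comes from long transcripts, so its share may be too low and its rank below Atp5g2 is uncertain.

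The Cox8b shares spread widely. Its median share was 0.819% in young mice, 0.310% at 18 months and 0.365% at 18 months with treatment. In the transgenic arm it was 0.125% in littermates, 0.0711% in untreated and 0.0658% in treated APP/PS1 mice. In young mice it ran from 0.0619 to 1.2% and in old mice from 0.0608 to 0.399%, so the groups overlapped. Choroid plexus markers summed to 14.8 to 4255 CPM (median 1358) in young and 25.1 to 259.7 CPM (median 110.1) in old mice. Treated APP/PS1 female 1, with 4115 CPM of them, had the highest Cox8b share of its group at 1.11%. Treated old female 1 had the highest Cox8b share of all libraries, but held only 87.7 CPM of choroid plexus markers. That library also had the highest muscle markers, 197 CPM, and the highest Cox6a2 share of all libraries. Cox8b was set against Ttr, 1 of the choroid plexus markers, in log2(CPM + 0.1) over the pooled libraries of each arm. In the aging and transgenic arms the Pearson correlation was 0.79 and 0.73 (permutation test, adjusted p = 0.0011 and 0.0024). It was 0.74 and 0.45 without the 2 libraries farthest from the median of Ttr. The rank correlation was 0.74 and 0.49 (permutation test, adjusted p = 0.0054 and 0.094). The part of choroid plexus or muscle tissue in the Cox8b values was not tested.

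**Figure D3:**
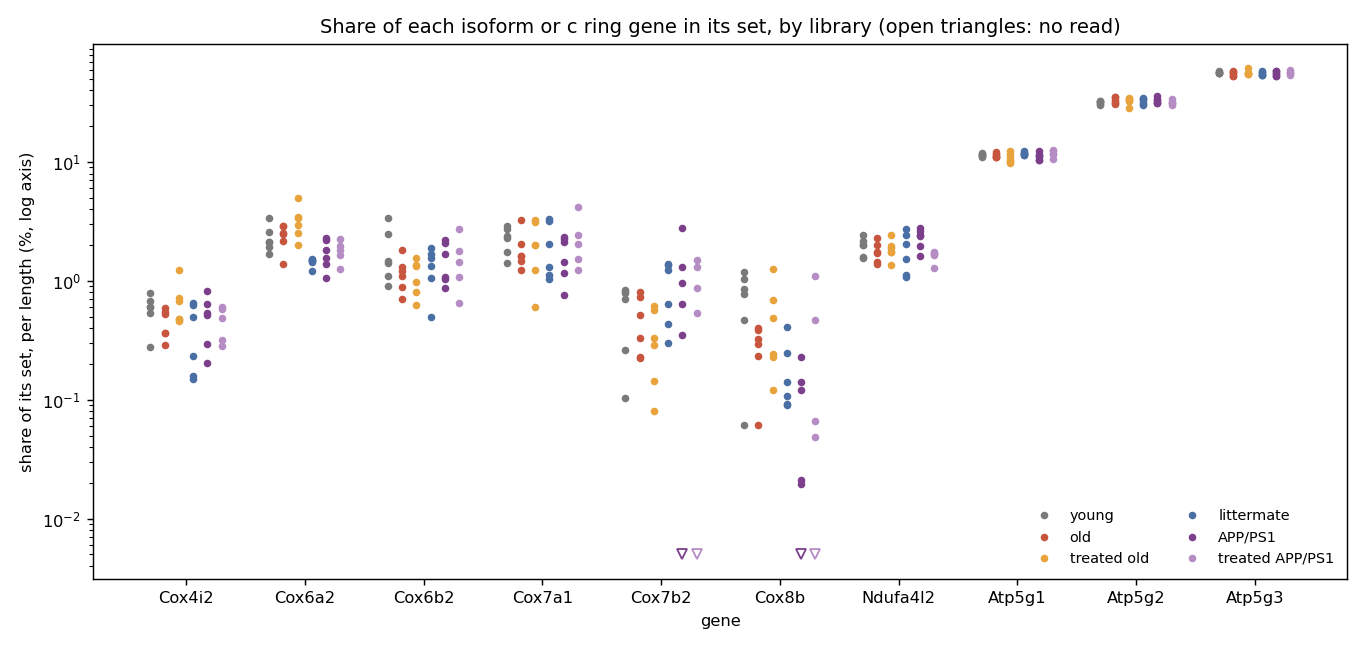
Share in percent per length (log axis) of each tissue isoform or paralog in its pair, and of the c ring genes in their sum of Atp5g1, Atp5g2 and Atp5g3, 1 point per library and colour per group; open triangles at the bottom mark libraries with no read. The tissue forms lie below 5%, and the c ring genes form narrow bands near 11.4, 32.3 and 55.8%. The lowest band, Atp5g1, may be too low because of its long annotated length.

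Promoter sequence is shown for a common and a scarce isoform of the same subunit, Cox8a and Cox8b, for Cox6a1, the most abundant member per length, and for Atp5g1 and Ndufs8, whose normalized counts did not overlap between groups in a comparison below. The stretches end upstream of the annotated start of transcription, are read on the minus strand, 5′ to 3′, of GRCm38.p6 from RefSeq, and were cut where annotated exons begin. Capitals mark the letters of 5 motifs searched on both strands: the NRF1 motif, CCGGAAG for ETS factors, AAGATGGCG for YY1, CCAAT (the CCAAT box) and TATAAA (the TATA box); neighbouring CCAAT matches can share letters. They lie at chr19:7217617-7217866 (Cox8a), chr7:140900447-140900696 (Cox8b), chr5:115348982-115349129 (Cox6a1), chr11:96075671-96075881 (Atp5g1) and chr19:3912775-3913024 (Ndufs8).
Cox8a: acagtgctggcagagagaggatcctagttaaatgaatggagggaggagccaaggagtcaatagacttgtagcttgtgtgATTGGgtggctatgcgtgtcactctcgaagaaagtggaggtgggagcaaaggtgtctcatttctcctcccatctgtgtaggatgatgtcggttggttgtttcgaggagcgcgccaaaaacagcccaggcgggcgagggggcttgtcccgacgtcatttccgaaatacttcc
Cox8b: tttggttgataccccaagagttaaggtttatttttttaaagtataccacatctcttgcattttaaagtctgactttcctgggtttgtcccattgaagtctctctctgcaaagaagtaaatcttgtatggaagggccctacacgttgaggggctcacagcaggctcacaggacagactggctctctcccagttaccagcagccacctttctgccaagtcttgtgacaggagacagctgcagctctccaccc
Cox6a1: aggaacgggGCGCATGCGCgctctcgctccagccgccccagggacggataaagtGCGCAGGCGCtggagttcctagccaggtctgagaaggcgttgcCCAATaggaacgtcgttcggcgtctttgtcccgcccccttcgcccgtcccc
Atp5g1: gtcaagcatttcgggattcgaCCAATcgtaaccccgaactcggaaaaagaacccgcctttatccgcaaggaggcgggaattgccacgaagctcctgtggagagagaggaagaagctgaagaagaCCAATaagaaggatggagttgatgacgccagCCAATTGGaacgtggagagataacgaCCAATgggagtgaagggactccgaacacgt
Ndufs8: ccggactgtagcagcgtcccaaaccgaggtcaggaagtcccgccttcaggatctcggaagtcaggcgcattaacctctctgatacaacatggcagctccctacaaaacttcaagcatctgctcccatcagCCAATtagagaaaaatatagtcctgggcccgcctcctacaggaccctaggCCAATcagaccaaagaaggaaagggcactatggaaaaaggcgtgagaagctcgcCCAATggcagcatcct

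The Atp5g1 stretch holds 5 CCAAT matches and the Ndufs8 stretch 3, Cox6a1 holds 2 NRF1 matches and 1 CCAAT match, Cox8a 1 CCAAT match in the reverse direction, and Cox8b none. ETS matches of the Cox6a1, Cox8a and Ndufs8 windows and a TATAAA match of the Cox8b window lie outside the stretches shown. In windows of 300 bases around the start, which 70 of the 86 genes have, NRF1 letters occurred in 16 (22.9%) against 4.60% of all 32851 windows of the table, YY1 letters in 7 (10%) against 1.40% and ETS letters in 15 (21.4%) against 8.86%. CCAAT occurred in 31 (44.3%) against 37.4% and TATAAA in 7 (10%) against 13.6%. A match is a description of letters and not of binding, and the table holds several windows for some genes.

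Old mice of 18 months were compared with young mice of 8 months to ask how the genes differ with age. None of the 84 members tested was called (limma, Benjamini-Hochberg adjusted p under 0.05), beside 6 of 16626 genes, or 0.0361%. 53 of the 84 had a positive estimate, with a median log2 fold change of 0.016 against -0.0039 for all genes, of which 8072 were positive. At an unadjusted p under 0.05, 3 members were higher and 0 lower, against 3.37% of all genes higher and 2.77% lower; edgeR and DESeq2 each gave 4 members, 3 higher and Cox8b lower. The 95% limits lay within 1.2-fold of no difference for 71 of 84 members and within 1.5-fold for 79.

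The members nearest to a difference were accessory subunits. Cox6c, a small subunit of complex IV, had 3675 to 4142 (median 3878) normalized counts in young and 4124 to 4886 (median 4153) in old mice. Old male 3 was the highest, and only young male 2 overlapped the old range. The estimate was 0.16 ± 0.058 on the log2 scale (SE), a 1.11-fold level, with an adjusted p = 0.691 by limma. Ndufb9, an accessory subunit of the membrane arm of complex I, ran from 3689 to 4394 (median 4216) in young to 4177 to 5005 (median 4623) in old mice, an estimate of 0.14 ± 0.060 (limma, adjusted p = 0.779). Young male 1 lay lowest and old male 3 highest, and the groups overlapped. Ndufa5, an accessory subunit of the matrix arm, gave 1532 to 1820 (median 1680) and 1694 to 1973 (median 1861), an estimate of 0.13 ± 0.057 (limma, adjusted p = 0.810), with overlap of both groups. With any 1 library left out, the Cox6c estimate was 0.12 to 0.17. No member had groups without overlap, against 0.505% of all genes.

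By complex, estimates were positive for 27 of 36 complex I genes (median 0.025), 2 of 4 complex II genes (-0.0060), 5 of 9 complex III genes (0.011), 10 of 18 complex IV genes (0.0034) and 9 of 17 ATP synthase genes (0.017). In the core of complex I, Ndufs1, its largest iron-sulfur protein, had an estimate of -0.044 ± 0.069 and Ndufv1, the NADH-binding subunit, 0.048 ± 0.062. Sdha stood at -0.078 ± 0.060 and the iron-sulfur subunit Sdhb at 0.011 ± 0.058. In complex III, the core protein Uqcrc1 stood at 0.024 ± 0.060, the Rieske iron-sulfur protein Uqcrfs1 at 0.011 ± 0.060, cytochrome c1 (Cyc1) at -0.0071 ± 0.057 and the small subunit Uqcr11 at 0.093 ± 0.057. Ndufab1, the mitochondrial acyl carrier protein, had an estimate of -0.082 ± 0.061.

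In complex IV, the common subunits Cox4i1, Cox5a, Cox7c and Ndufa4 had estimates of 0.082 ± 0.066, 0.0045 ± 0.076, -0.013 ± 0.12 and 0.077 ± 0.067, and Cox7a2l, which helps join complexes III and IV, 0.074 ± 0.042. The scarce forms had wide errors: Cox4i2 -0.27 ± 0.29, Cox6a2 0.20 ± 0.23, Cox6b2 -0.53 ± 0.33, Cox7a1 -0.28 ± 0.25 and Ndufa4l2 -0.077 ± 0.17. Cox8b had the lowest estimate of the set at -1.01 ± 0.60, with 95% limits of -2.32 to 0.30, from 4.16 to 78.3 (median 53.5) normalized counts in young and 5.50 to 25.3 (median 20.8) in old mice. Young male 2 and old male 3, which held 14.8 and 25.1 CPM of choroid plexus markers, were its lowest libraries in each group. The Cox8b estimate was -1.56 without young male 2 and -0.69 without young male 3. In ATP synthase, Atp5a1 and Atp5b had estimates of -0.011 ± 0.055 and 0.025 ± 0.061, the stalk subunit Atp5h 0.073 ± 0.047, and the c ring genes Atp5g1, Atp5g2 and Atp5g3 0.021 ± 0.051, 0.067 ± 0.061 and -0.010 ± 0.060.

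Leaving out 1 library at a time moved the count of positive members between 41, without old male 3, and 67, without old male 2, with medians of -0.0022 and 0.037. Without the 3 libraries with striatal or few hippocampal markers (young males 1 and 2 and old male 3), 63 of 84 were positive with a median of 0.037. Markers of choroid plexus were positive for 0 of 12 (median -1.97), of microglia for 8 of 8 (0.33) and of hippocampal neurons for 10 of 10 (0.27), and their part in the members' values was not tested.

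**Figure D4:**
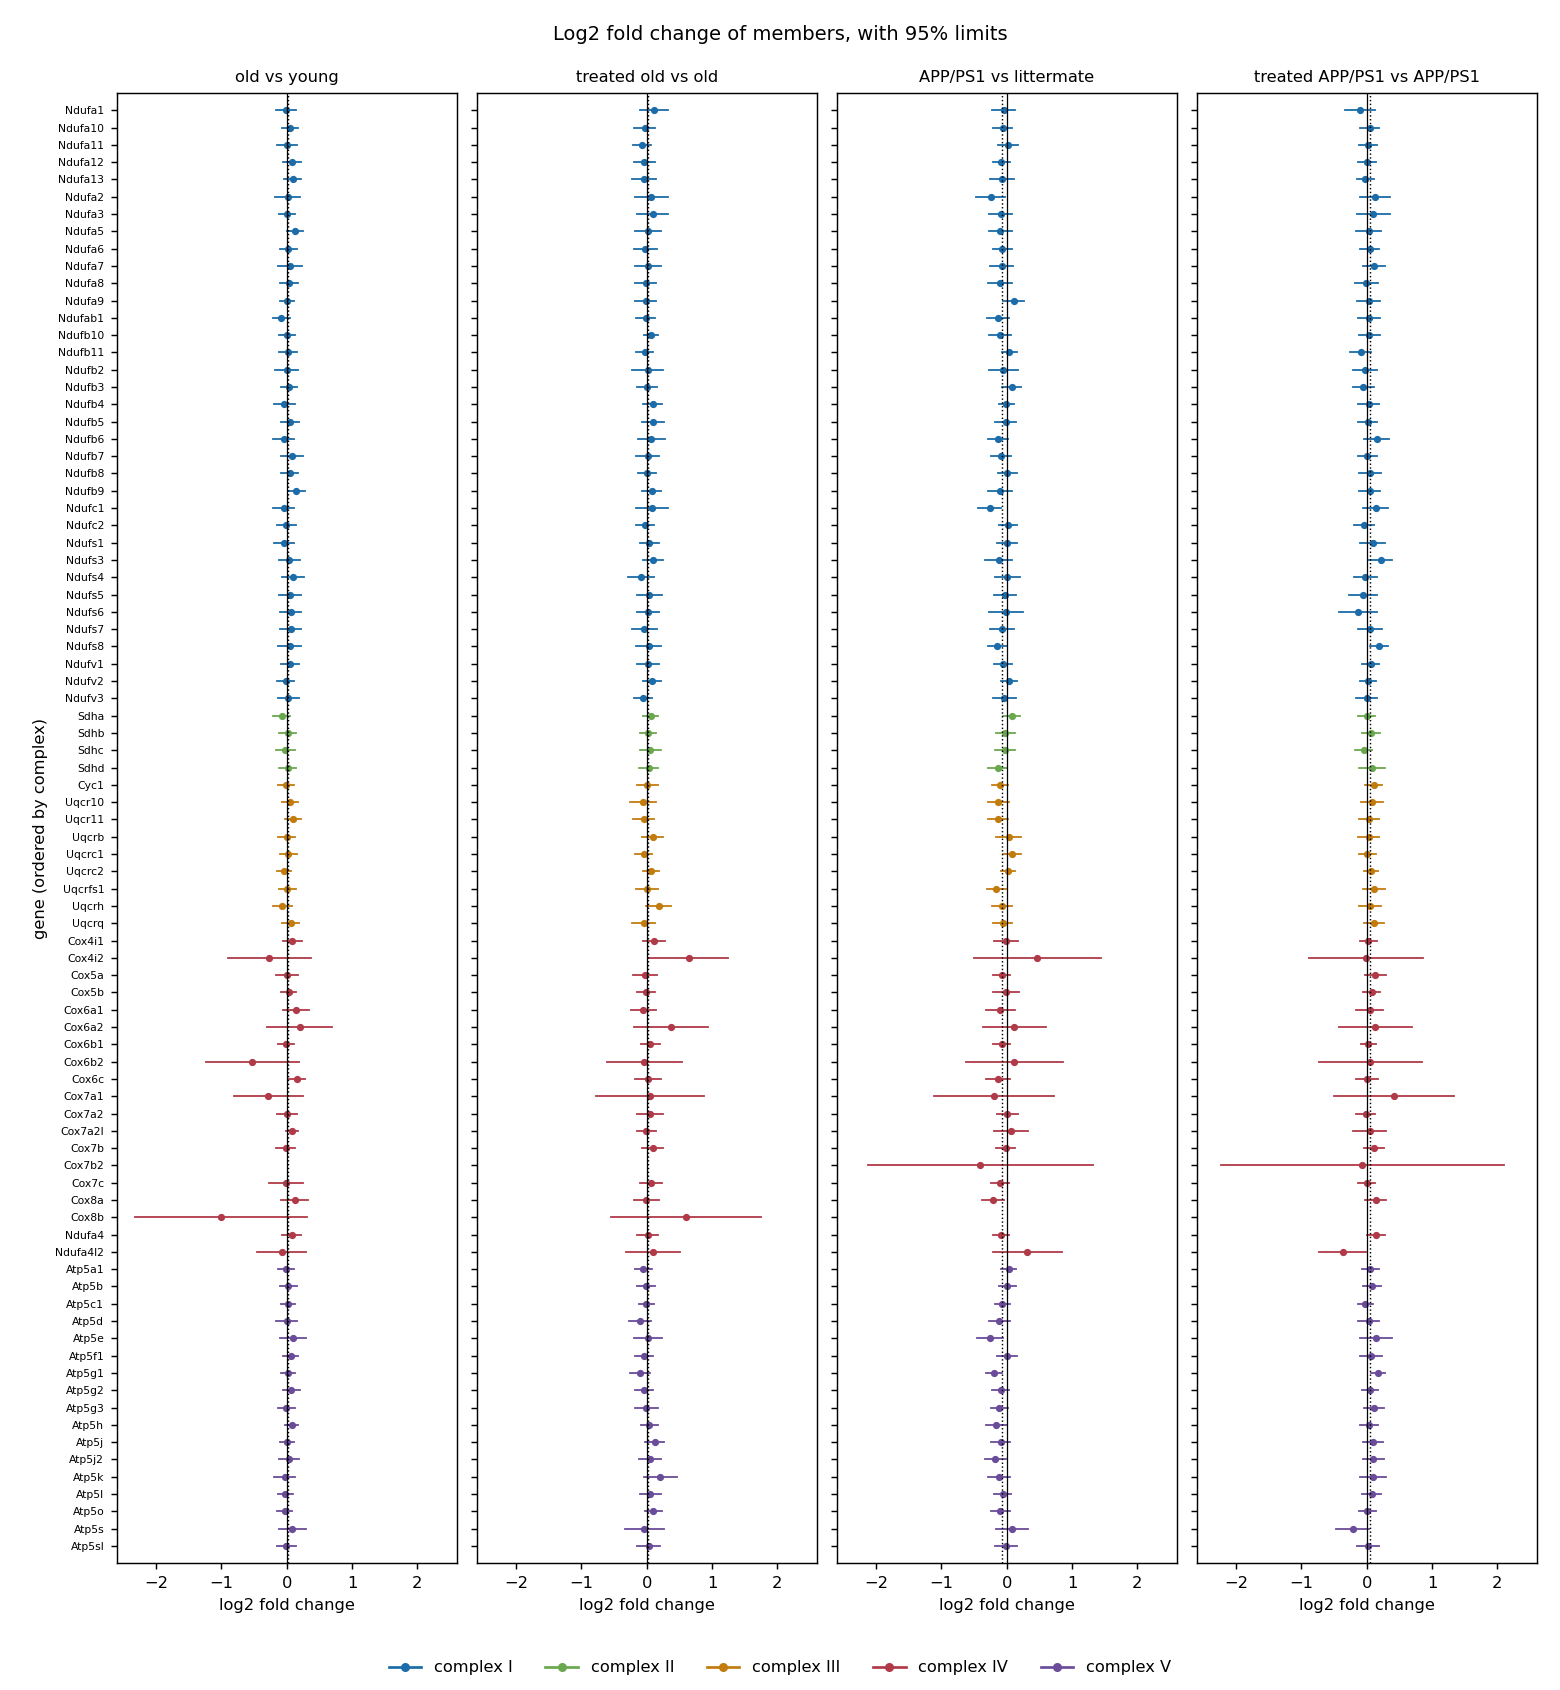
Log2 fold change (x axis) with 95% limits of the members, 1 row per gene ordered by complex and coloured by it, in 4 panels for the comparisons; the solid line marks 0 and the dotted line the median of the members. Most points lie close to 0, the medians are 0.016, 0.017, -0.067 and 0.043 from left to right, and the scarce isoforms such as Cox8b and Cox7b2 have the widest limits.

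Treated old mice were compared with untreated old mice, both of 18 months, to ask what the nanoligomer changed in aged tissue. 0 of 84 members and 0 of 16517 genes (0%) were called by limma; 1192 genes had an unadjusted p under 0.05, edgeR called 0 genes and DESeq2 2, none of them a member. 52 members had a positive estimate, with a median of 0.017 against -0.0034 for all genes. At an unadjusted p under 0.05, 1 member was higher and 0 lower, against 3.62% of genes higher and 3.60% lower. The limits lay within 1.2-fold for 67 members and within 1.5-fold for 79.

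That member was Cox4i2, the hypoxia-responsive form. It had 30.0 to 77.1 (median 46.6) normalized counts in old and 53.0 to 119 (median 71.2) in treated old mice. Treated old female 2 was the highest, the lowest treated library lay above 3 of the 6 old ones, and the groups overlapped. The estimate was 0.64 ± 0.28, with limits of 0.037 to 1.24 (limma, adjusted p = 0.678), and 0.86 in females and 0.42 in males; DESeq2 but not edgeR also gave it an unadjusted p under 0.05. Summed markers of mural cells, the vascular cells in which this form is known, were 194 to 256 CPM in old and 185 to 238 CPM in treated old mice. Of these markers, 5 of 10 were positive. Over the 18 libraries of the aging arm, young included, their sum and Cox4i2 had a Pearson correlation of 0.42 (permutation test, adjusted p = 0.13). The rank correlation was 0.49 (permutation test, adjusted p = 0.094). In the transgenic arm the Pearson correlation was -0.11 (permutation test, adjusted p = 0.76). The part of mural cells in the difference between the groups was not tested. Uqcrh, the hinge protein of complex III, came next: 2971 to 3752 (median 3385) in old, 3347 to 4563 (median 3762) in treated old mice, an estimate of 0.18 ± 0.088 (limma, adjusted p = 0.678). No member had groups without overlap, against 0.254% of genes.

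Core subunits of complex I were positive for 6 of 7 (median 0.033), with Ndufs1 at 0.038 ± 0.068 and Ndufv1 at 0.019 ± 0.078, and the supernumerary ones for 17 of 29 (0.011), with Ndufa11 at -0.071 ± 0.065 and Ndufb10 at 0.067 ± 0.050. All 4 complex II genes had positive estimates, Sdha 0.059 ± 0.055 and Sdhb 0.015 ± 0.057. Complex III was divided, with 5 of 9 positive and Uqcrc1, Uqcrfs1 and Cyc1 at -0.049 ± 0.061, 0.0031 ± 0.080 and 0.0038 ± 0.074. In complex IV, Cox4i1 stood at 0.11 ± 0.077, Cox5a at -0.033 ± 0.085, Cox7c at 0.061 ± 0.077, Ndufa4 at 0.012 ± 0.075 and Cox7a2l at -0.0081 ± 0.067. The scarce forms Cox6a2, Cox6b2, Cox7a1, Cox8b and Ndufa4l2 had estimates of 0.37 ± 0.26, -0.039 ± 0.27, 0.048 ± 0.39, 0.60 ± 0.53 and 0.091 ± 0.19.

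Within ATP synthase the parts had estimates of both signs. The 3 c ring genes were negative, Atp5g1 -0.10 ± 0.068, Atp5g2 -0.041 ± 0.064 and Atp5g3 -0.0068 ± 0.083, but edgeR and DESeq2 gave Atp5g3 a value just above 0. In F1, 1 of 5 was positive, with Atp5a1 at -0.055 ± 0.061, Atp5b at -0.014 ± 0.065 and Atp5d, the delta subunit of the shaft, at -0.099 ± 0.078. All 3 membrane subunits were positive, as were 3 of 4 stalk subunits, led by Atp5j, coupling factor 6, at 0.12 ± 0.065. None of these passed the test.

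Direction over the set depended on single libraries. The count of positive members was 36 with a median of -0.011 without treated old female 1, and 62 with a median of 0.048 without treated old female 2. Without old male 3 and treated old female 3 it was 60, with a median of 0.047. Markers of striatum were positive for 7 of 8 (median 0.61) and those of hippocampal neurons for 1 of 10 (median -0.33) in treated old against old mice.

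APP/PS1 mice were compared with non-carrier littermates, both of 4 months, to ask what the transgenes changed. None of 84 members was called by limma, beside 8 of 16475 genes (0.0486%). 60 members had a negative estimate and 24 a positive one, with a median of -0.067 against 0.0010 for all genes, of which 8287 were positive. At an unadjusted p under 0.05, 8 members were lower and 0 higher, against 5.46% of genes lower and 4.72% higher. The same 8 had p under 0.05 with edgeR and with DESeq2, and 0 were called by either tool. The limits lay within 1.2-fold for 50 members and within 1.5-fold for 78.

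The lowest p belonged to Atp5g1, 1 of the 3 genes for the c ring subunit. Littermates had 3384 to 3941 (median 3626) normalized counts and APP/PS1 mice 3048 to 3382 (median 3242). All 6 APP/PS1 libraries lay below all 6 littermate libraries, by a margin of 3382 against 3384, the only member without overlap, against 0.850% of genes. The estimate was -0.19 ± 0.056, a 0.876-fold level (limma, adjusted p = 0.253), and -0.21 in females and -0.17 in males. With any 1 library left out the estimate was -0.21 to -0.17, and -0.15 without APP/PS1 female 1 and littermate female 1. The other c ring genes stood at -0.095 ± 0.060 (Atp5g2) and -0.11 ± 0.059 (Atp5g3).

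The other members lower at an unadjusted p under 0.05 belonged to complexes I, III, IV and V. Ndufc1, an accessory subunit of complex I, had 511 to 623 (median 551) in littermates and 424 to 515 (median 456) in APP/PS1 mice, with slight overlap and an estimate of -0.26 ± 0.083 (limma, adjusted p = 0.306). Atp5e, the epsilon subunit of the F1 shaft, had 1255 to 1708 (median 1427) and 1022 to 1444 (median 1194), an estimate of -0.26 ± 0.095 (limma, adjusted p = 0.374). Cox8a had 8038 to 9549 (median 8553.1) and 6100 to 8118 (median 7789), an estimate of -0.21 ± 0.079 (limma, adjusted p = 0.382). The lowest Cox8a library was APP/PS1 female 1, and without it the estimate was -0.15. Uqcrfs1 stood at -0.16 ± 0.070 (limma, adjusted p = 0.466). Chosen after their values were seen, Ndufa2 stood at -0.25 ± 0.10, Atp5j2, the f subunit of the membrane part, at -0.17 ± 0.074, and Ndufs8, a core iron-sulfur subunit of complex I, at -0.14 ± 0.065, with adjusted p = 0.435, 0.449 and 0.475 by limma.

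By role, positive estimates were found for 3 of 7 core and 7 of 29 supernumerary complex I subunits (medians -0.060 and -0.063), 1 of 4 in complex II, 3 of 9 in complex III, 1 of 11 common complex IV subunits (median -0.076), 5 of 7 isoforms or paralogs of complex IV, Cox7a2l included (median 0.11) and 4 of 17 in ATP synthase (median -0.095). Core, catalytic and other named subunits had estimates of both signs: Ndufs1 0.0025 ± 0.072, Ndufv1 -0.060 ± 0.065, Ndufa9 0.10 ± 0.072, Sdha 0.075 ± 0.059, Sdhb -0.021 ± 0.069, Uqcrc1 0.080 ± 0.064, Atp5a1 0.028 ± 0.055 and Atp5b 0.0096 ± 0.062. The membrane anchor Sdhd stood at -0.14 ± 0.070 and Cyc1 at -0.10 ± 0.058. In complex IV, Cox4i1, Cox5a, Cox7c, Ndufa4 and Cox7a2l had estimates of -0.011 ± 0.083, -0.076 ± 0.060, -0.100 ± 0.064, -0.090 ± 0.059 and 0.065 ± 0.12. The scarce forms Cox4i2, Cox6a2, Cox6b2, Cox7a1 and Ndufa4l2 stood at 0.47 ± 0.45, 0.12 ± 0.22, 0.11 ± 0.34, -0.19 ± 0.43 and 0.32 ± 0.24. Cox8b was below the filter here.

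Littermate female 1 weighed on this count. Without it, 35 of 84 members were positive with a median of -0.035, and 4 were lower and 1 higher at an unadjusted p under 0.05; without it and APP/PS1 female 1, 33 were positive with a median of -0.023. The members lower at that level also fell to 4 without APP/PS1 female 3, with 35.7% positive, and without littermate male 2, with 32.1% positive. Over all libraries left out in turn, 19 to 35 members were positive and 4 to 10 were lower at that level. Over all genes, 21 were called without APP/PS1 female 1 and 256 without APP/PS1 female 3, none of them a member. Among tissue markers, those of hippocampal neurons were positive for 2 of 10 (median -0.48), of striatum for 8 of 8 (1.10) and of choroid plexus for 0 of 12 (-0.97). Their part beyond the libraries left out was not tested.

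Treated APP/PS1 mice (n = 5) were compared with untreated APP/PS1 mice (n = 6), both of 4 months, to ask what the nanoligomer changed in the transgenic model. 0 of 84 members and 0 of 16124 genes (0%) were called by limma; 477 genes had an unadjusted p under 0.05, edgeR called 0 genes and DESeq2 7, none a member. 64 members had a positive estimate, with a median of 0.043 against -0.0022 for all genes. At an unadjusted p under 0.05, 4 members were higher and 1 lower, against 1.45% of genes higher and 1.51% lower, and edgeR and DESeq2 gave the same 5. The limits lay within 1.2-fold for 56 members and within 1.5-fold for 78. The APP/PS1 libraries are also part of the comparison with littermates, so the signs of these comparisons are not independent, and their values are set side by side only.

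Atp5g1 was the member with the lowest p here too. APP/PS1 mice had 2297 to 2564 (median 2437) normalized counts; treated females 1 and 2 had 2789 and 2801, and treated males 1, 2 and 3 had 2609, 2752 and 2668. All 5 treated libraries lay above all 6 untreated ones. The estimate was 0.17 ± 0.052 (limma, adjusted p = 0.997), beside -0.19 for APP/PS1 against littermates. In CPM, which can be set across tables, Atp5g1 was 92.9 to 110.4 in littermates, 82.1 to 90.6 in untreated mice and 90.9 to 104 in treated mice.

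Ndufs8, a subunit that carries iron-sulfur clusters toward the quinone site of complex I, was the other member without overlap, against 0.310% of genes. Untreated mice had 1206 to 1382 (median 1325), treated females 1 and 2 had 1452 and 1530, and treated males 1, 2 and 3 had 1389, 1603 and 1516. The estimate was 0.19 ± 0.062, beside -0.14 for APP/PS1 against littermates. Its core neighbour Ndufs3 had 1292 to 1731 (median 1581) in untreated mice, and 1688 and 1799 in treated females 1 and 2 and 1777, 1849 and 1891 in treated males 1, 2 and 3. Only 1 treated library, female 1, lay within the untreated range, and the estimate was 0.22 ± 0.080. Ndufa4, the complex IV subunit long counted with complex I, had 2420 to 2905 (median 2725) in untreated mice, 2975 and 2801 in treated females 1 and 2 and 3034, 3195 and 2895 in treated males 1, 2 and 3, an estimate of 0.14 ± 0.064. Its hypoxia-linked paralog Ndufa4l2 had the opposite sign: 83.5 to 137 (median 111) in untreated mice, 67.9 and 82.1 in treated females 1 and 2 and 92.3, 98.9 and 90.9 in treated males 1, 2 and 3, an estimate of -0.37 ± 0.17 with overlap. All of these had adjusted p = 0.997 by limma. With any 1 library left out, the estimates of Atp5g1, Ndufs8, Ndufs3, Ndufa4 and Ndufa4l2 were 0.16 to 0.19, 0.16 to 0.21, 0.17 to 0.25, 0.12 to 0.18 and -0.44 to -0.31.

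**Figure D5:**
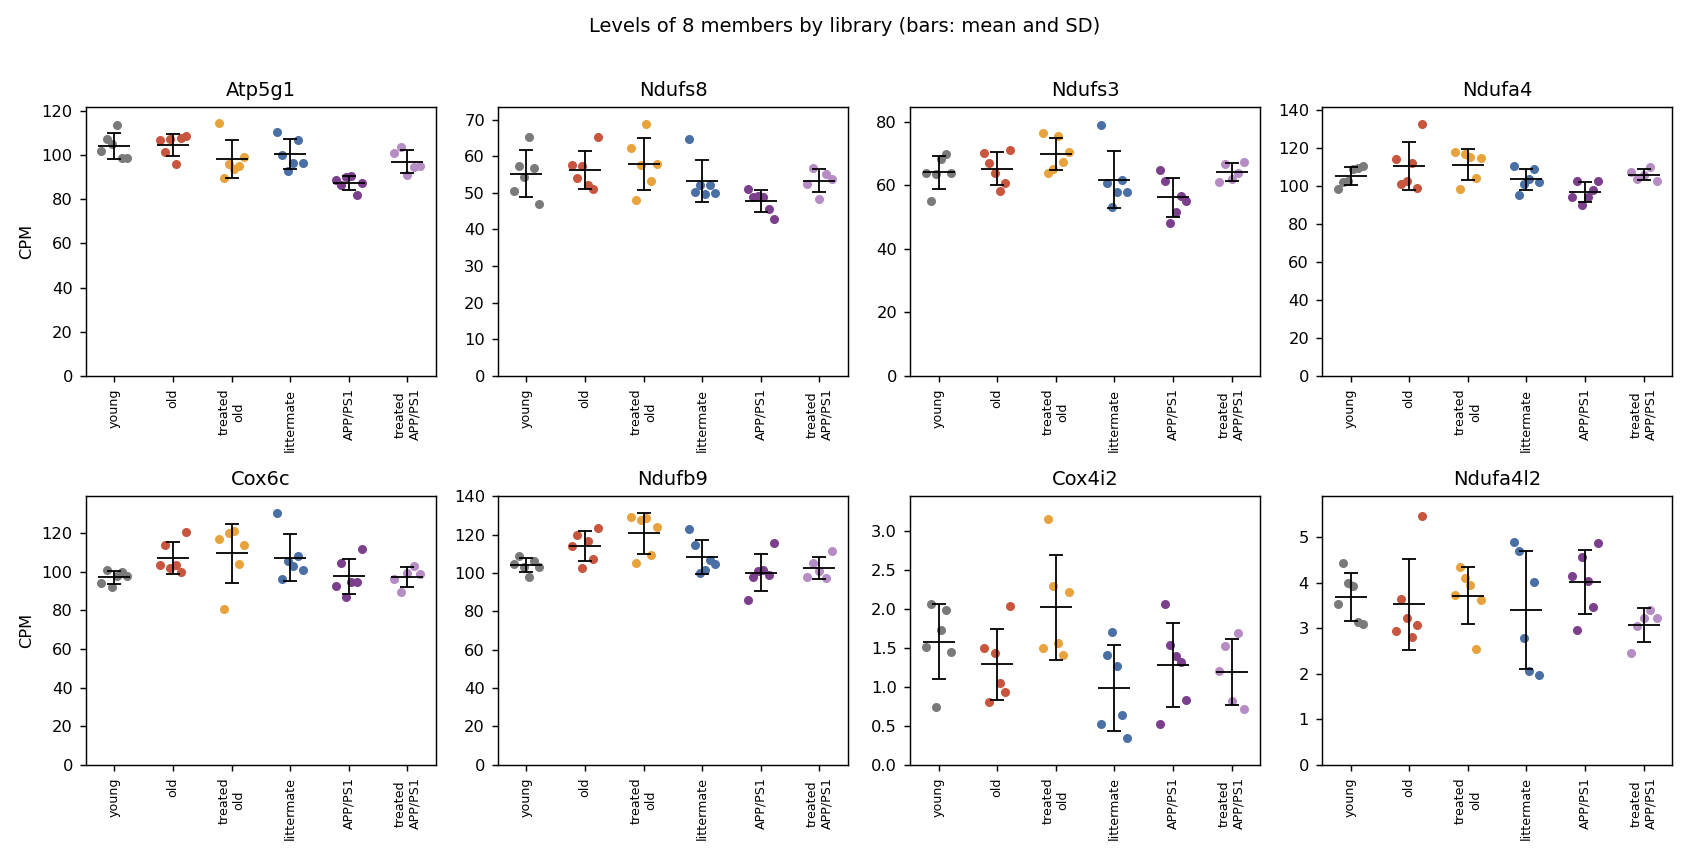
Level in CPM (y axis, from 0) of Atp5g1, Ndufs8, Ndufs3, Ndufa4, Cox6c, Ndufb9, Cox4i2 and Ndufa4l2, 1 panel each, with 1 point per library in 6 groups and bars for mean and SD. The APP/PS1 points of Atp5g1 lie at 82.1 to 90.6 CPM, below the littermate and the treated APP/PS1 points, while groups overlap for Cox4i2 and Ndufa4l2.

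By role, positive estimates were found for 7 of 7 core complex I subunits (median 0.058), 18 of 29 supernumerary ones (0.014), 2 of 4 complex II genes, 9 of 9 complex III genes (0.059), 9 of 11 common complex IV subunits (0.043) and 15 of 17 ATP synthase genes (0.065), including all 3 c ring, 3 membrane and 4 stalk genes. Ndufs1 and Ndufv1 stood at 0.088 ± 0.085 and 0.058 ± 0.057, and the accessory subunit Ndufb11 at -0.092 ± 0.074. Sdha and Sdhb stood at -0.0042 ± 0.062 and 0.067 ± 0.064. Uqcrc1, Uqcrfs1 and Cyc1 had estimates of 0.0099 ± 0.057, 0.11 ± 0.078 and 0.10 ± 0.057. In complex IV, Cox4i1, Cox5a, Cox7c and Cox7a2l stood at 0.022 ± 0.060, 0.13 ± 0.074, -0.0032 ± 0.058 and 0.043 ± 0.12, and the scarce Cox4i2, Cox6a2, Cox6b2 and Cox7a1 at -0.014 ± 0.40, 0.13 ± 0.26, 0.052 ± 0.36 and 0.41 ± 0.42. In ATP synthase, Atp5a1 and Atp5b stood at 0.054 ± 0.061 and 0.082 ± 0.064, Atp5g2 and Atp5g3 at 0.045 ± 0.057 and 0.11 ± 0.070, and the related factor Atp5s at -0.22 ± 0.12.

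Between 61 and 67 members were positive with 1 library left out, and 60 without APP/PS1 female 1 and treated APP/PS1 male 2, with a median of 0.049. Without treated APP/PS1 female 1, 78.6% were positive, with 4 higher and 0 lower at an unadjusted p under 0.05. With the shallow treated female 3 included, 9 were positive and the median was -1.68. Choroid plexus markers were positive for 12 of 12 (median 2.74), with a sum of 20.3 to 96.2 CPM in untreated and 68.2 to 4115 CPM in treated mice, and microglial markers for 1 of 8 (-0.19). Their part in the members' values was not tested.

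The difference between the effects in females and in males was called for 0 members: 0% of genes were called in the comparison of old with young, 0% in treated old, 0% in APP/PS1 against littermates and 0% in treated APP/PS1 mice (limma), beside 728 to 840 genes at an unadjusted p under 0.05. At that level stood 1 member with age, Ndufs1, at 0.099 in females and -0.19 in males, and 1 with treatment of old mice, Cox7a1, at 0.84 in females and -0.74 in males; both were chosen after their values were seen.

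Differences between effects in tables with no shared library were tested in joint limma fits. The effect of treatment in APP/PS1 mice minus that in old mice gave 0 calls among 83 members and 0% of 15990 genes, with 695 genes at an unadjusted p under 0.05. 1 member was higher and 0 lower at that level, against 2.31% of genes higher and 2.03% lower, and 50 were positive. That member was Atp5g1, at 0.27 ± 0.083 (limma, adjusted p = 0.918), from 0.17 in APP/PS1 and -0.10 in old mice. The effect of age minus that of the transgenes gave 0 calls among 83 members, beside 0.0429% of 16300 genes. Here 9 members were higher and 0 lower at an unadjusted p under 0.05, against 5.48% of genes higher and 6.31% lower, and 63 were positive with a median of 0.082. Atp5g1 stood at 0.21 ± 0.070, Cox6c at 0.28 ± 0.10, Cox8a at 0.33 ± 0.12 and Atp5e at 0.35 ± 0.13, with adjusted p = 0.274 for Atp5g1 by limma. Littermate female 1, high for most members, enters this difference.

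Other genes of mitochondria and energy supply were counted in the same fits, and limma called none in any of the lists that follow. Assembly factors of complex I were positive for 7, 8, 5 and 8 of 15 in old against young, treated old against old, APP/PS1 against littermate and treated against untreated APP/PS1 mice, and those of complexes II to V for 18, 19, 19 and 20 of 33. Cox19, a copper-handling factor for complex IV, stood at -0.31 ± 0.084 in APP/PS1 mice against littermates and 0.22 ± 0.091 in treated against untreated ones (adjusted p = 0.229 and 0.997 by limma), and Cox20, which escorts a complex IV core subunit, at 0.29 ± 0.095 with age. Carriers and partners of the chain were positive for 10, 14, 12 and 16 of 27, with Ucp2, an inner membrane transporter, at -0.30 ± 0.11 in treated old mice.

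Genes of the tricarboxylic acid cycle, which feeds the chain, were positive for 9, 7, 10 and 14 of 18 in the same order, and Pdha1 of pyruvate dehydrogenase stood at 0.16 ± 0.050 in treated APP/PS1 mice. Glycolysis genes were positive for 13, 7, 12 and 19 of 22, and in treated APP/PS1 mice their median was 0.083, with Eno1 at 0.18 ± 0.067 and the neuronal glucose transporter Slc2a3 at 0.19 ± 0.060 (adjusted p = 0.997 by limma). Regulators of mitochondrial biogenesis were positive for 11, 12, 11 and 14 of 21. Among them the nuclear receptor Esrrg stood at 0.62 ± 0.22 and the coactivator Ppargc1b at 0.41 ± 0.17 in APP/PS1 mice, and the factor Nrf1 itself at -0.22 ± 0.094 in treated APP/PS1 mice (adjusted p = 0.353, 0.428 and 0.997 by limma).

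Mitochondrial ribosomal protein genes were positive for 46, 34, 32 and 44 of 77, import genes for 16, 15, 13 and 16 of 27, and oxidant defence genes for 8, 11, 4 and 8 of 13. Cytosolic ribosomal protein genes, which are outside mitochondria, were positive for 76 of 82, 73 of 82, 19 of 81 and 24 of 81, with medians of 0.059, 0.082, -0.045 and -0.031. Their median had the same sign as that of the 86 genes in the first 3 comparisons and the opposite sign in treated APP/PS1 mice, where the members' median was 0.043.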

How the data were processed

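Hippocampal polyadenylated RNA was sequenced (Illumina TruSeq), per the labels' protocols. The authors deposited 4 tables of normalized counts, here treated as a signal: read counts per gene divided by 1 factor per library, so that each table has its own scale. STAR, DESeq2 and the build mm10 appear in the submitters' processing notes; their roles, versions and strand setting are not given in the sources used. Dividing each column by its smallest step gave whole reads (100% of values within 0.001 reads). Libraries in 2 tables (12 of 36) gave the same reads. No column of values was left out; a column labelled ABTM3 was matched to the title AMTM3 as the only one left in its group.

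Log2(normalized count + 1) was fitted within each table with limma 3.58.1 (trend, R 4.3.3) with sex and group as terms, over genes with a mean of at least 10. P-values were adjusted by Benjamini-Hochberg over all genes tested, and a gene was called at an adjusted p under 0.05. Fold changes are on this log2(count + 1) scale and understate those of low genes. Of the 86 members, 84 passed the filter in each comparison (Cox8c never, Cox8b in the C57BL/6 tables only, Cox7b2 in the transgenic tables only). Treated APP/PS1 female 3 (0.913 M reads) was left out. Depth limits low members: in the shallowest library used, with 27.6 M reads, 1 CPM is 27.6 reads. The fit was run before use on simulated counts with known changes, and the outcome is not given here. Genes were drawn independently there, without shifts of whole libraries in composition, so that run cannot show how the fit handles such shifts. Levels per length used the median length of APPRIS principal transcripts (GENCODE M21, GRCm38). Promoter windows came from RefSeq (GRCm38.p6), and the printed stretches were chosen after the values and matches were seen.

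The members, gene lists and tests were chosen with earlier results of these data known. Genes named in every comparison are central subunits of each complex, the c ring genes and the tissue isoforms; values of 1 member are not reported here, though it enters the counts. Added to them are up to 3 members with the lowest p in each direction, the lowest of each complex, and up to 2 uncalled genes of each other list. Alternatives were other filters, pseudocounts of 0.5 and 5, TMM scaling, no trend, no sex term, the replicate number as a block, edgeR 4.0.16 and DESeq2 1.42.0 on the recovered reads, and each library left out. Leaving out pairs or sets of libraries, by tissue markers or as the highest of its group, was chosen after seeing the data.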

Additional observations from a re-analysis of the deposited data

Results flagged for a closer look

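Of 294 group values tested in groups of 5 or 6 libraries (each complex sum and each named gene, in CPM), 39 had 1 library far from the others by Dixon's criterion at 95%. For a single value chance gives about 1 in 20. The 294 values are not independent, because sums contain genes also tested singly and 1 library can be high for many genes. The count of 39 therefore cannot be weighed against that rate. Young male 1 had few hippocampal neuron markers and many markers of choroid plexus, thalamus and habenula, whose part was not tested. It was high for 12: all members 9466 (others 8231 to 8563), complex I 2632, complex II 645, complex III 929, complex V 3414, Atp5a1 817, Atp5g3 164, Ndufa11 93.6, Ndufb10 131, Sdha 432, Uqcrc1 254 and Uqcrh 117 CPM. Treated APP/PS1 female 1, with 4115 CPM of choroid plexus markers, had a member sum of 7918 CPM. Littermate female 1, the library highest in ribosomal protein genes, was high for 9: complex III 902, Atp5h 134, Cox6c 130.2, Cox7c 85.8, Ndufb10 117, Ndufs3 79.1, Ndufs8 64.7, Ndufv1 129 and Uqcrc1 233 CPM. APP/PS1 female 1, with striatal markers, was high for 5: complex II 579, Atp5a1 766, Ndufa9 74.6, Ndufab1 51.2 and Sdha 385 CPM. Old male 3 was high for complex IV at 2247, Cox4i1 at 353, Cox8a at 341 and Ndufa4l2 at 5.45 CPM.

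The rest fell to single libraries. Young male 2 was apart for Cox7c at 107 CPM, treated old female 2 was low for Cox7a2l at 86.4 and Uqcrfs1 at 40.2 CPM, and treated old male 3 was high for Sdha at 376 CPM. Littermate female 2 was low for Sdha at 279 CPM. In treated APP/PS1 mice, male 1 was low for Atp5s at 6.76 CPM, female 2 was apart for Ndufc1 at 15.4 and Sdha at 355 CPM, and female 1 was apart for Uqcrfs1 at 55.8 CPM.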

How the results depend on the processing

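None of the 86 genes was called in any comparison under any alternative, and the count of called genes over the whole table was what moved. With age, 6 genes were called in the main analysis, 4 to 11 with 1 library left out (11 without old female 1), 1 with the replicate block and 123 with DESeq2; treated old mice gave 0 and 2 with DESeq2. APP/PS1 mice gave 8, then 6 to 256 with 1 library left out (256 without APP/PS1 female 3, 21 without female 1), 23 without APP/PS1 female 1 and littermate female 1, and 253 with DESeq2; treated APP/PS1 mice gave 0 and 7 with DESeq2. Replicate numbers were not found to pair libraries: deviations of same-numbered libraries correlated over 0.1 in 1 of 6, 0 of 6, 1 of 6 and 1 of 5 pairs, and the block gave 1, 0, 10 and 0 called genes. TMM scaling kept the sign of the members' median in all 4 comparisons. With 1 library left out, positive members numbered 41 to 67 of 84 with age, 36 to 62 in treated old, 19 to 35 in APP/PS1 and 61 to 67 in treated APP/PS1 mice; with the shallow treated female 3 they numbered 9, with a median of -1.68. Signs of uncalled estimates changed in 157 of 2522 values of named genes, 115 of them with 1 library left out. With the shallow treated female 3 included, 17 of 26 values changed sign, and the median over all genes tested was -0.68. The cause of the sign changes was not tested. In old against young mice the changed signs were as follows, without young males 1 and 2 and old male 3 Ndufs1 0.041, Cox7c 0.073, Atp5a1 0.036 and Atp5g3 0.042. In treated old mice the changed signs were as follows, with edgeR Atp5g3 0.0034 and Cox7a2l 0.0010, then with DESeq2 Atp5g3 0.00056, then without old male 3 and treated old female 3 Ndufs1 -0.011, Uqcrc1 0.017, Uqcrfs1 -0.0079, Atp5b 0.0053 and Atp5g3 0.0040. In APP/PS1 mice the changed signs were as follows, with TMM scaling Ndufs1 -0.0022, then without APP/PS1 female 1 and littermate female 1 Ndufv1 0.0024, Sdhb 0.0060 and Cox4i1 0.063. In treated APP/PS1 mice the changed signs were as follows, with the replicate block Uqcrc1 -0.0055, Cox7c 0.0052, Cox4i2 0.039 and Cox7a2l -0.018, then with DESeq2 Sdha 0.0030 and Cox7c 0.0045, then without APP/PS1 female 1 and treated APP/PS1 male 2 Sdha 0.013, Uqcrc1 -0.012 and Cox4i1 -0.0068, then with the shallow female 3 included Ndufs1 -1.80, Ndufv1 -1.85, Ndufa4 -0.38, Sdhb -0.80, Uqcrc1 -2.07, Cyc1 -1.78, Cox4i1 -0.38, Atp5a1 -0.23, Atp5b -2.34, Atp5g2 -0.76, Atp5g3 -1.85, Cox6a2 -1.07, Cox7a1 -0.37, Cox6b2 -0.93, Cox7a2l -0.011, Ndufs8 -1.57 and Ndufs3 -1.58. 

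Ranges with 1 library left out that crossed 0 were, in old against young mice Sdhb -0.020 to 0.039, Uqcrc1 -0.0043 to 0.060, Uqcrfs1 -0.018 to 0.040, Cyc1 -0.040 to 0.029, Cox5a -0.039 to 0.043, Cox7c -0.062 to 0.11, Atp5a1 -0.025 to 0.0083 and Atp5g3 -0.035 to 0.027. Those in treated old mice were Ndufv1 -0.032 to 0.052, Ndufa4 -0.021 to 0.065, Sdhb -0.00090 to 0.040, Uqcrfs1 -0.021 to 0.075, Cyc1 -0.032 to 0.037, Cox5a -0.079 to 0.0087, Atp5b -0.039 to 0.022, Atp5g3 -0.081 to 0.038, Cox7a1 -0.10 to 0.36, Cox6b2 -0.19 to 0.12 and Cox7a2l -0.046 to 0.052. Those in APP/PS1 mice were Ndufs1 -0.038 to 0.050, Sdhb -0.057 to 0.025, Cox4i1 -0.048 to 0.059, Atp5b -0.018 to 0.037, Cox6a2 -0.033 to 0.25, Cox7a1 -0.37 to 0.049, Cox6b2 -0.12 to 0.27 and Cox7a2l -0.024 to 0.14. Those in treated APP/PS1 mice were Sdha -0.032 to 0.030, Uqcrc1 -0.011 to 0.032, Cox4i1 -0.0025 to 0.048, Cox7c -0.025 to 0.028, Cox4i2 -0.27 to 0.14, Cox6b2 -0.16 to 0.29 and Cox7a2l -0.018 to 0.12.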
